A study of Mus musculus with 4 samples.

Results

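Sertoli cells, the somatic cells that enclose the germ cells of the seminiferous tubule, secrete carrier proteins, protease inhibitors, proteases and signalling enzymes and hold cytoplasmic proteins by which they are recognised. The 10 genes described here were listed under such products: Clu, Cst9, Ctsl, Ptgds, Shbg, Aard, Etd, Mro, Tesc and the receptor gene Erbb4. They were chosen by symbol as Sertoli products that are neither transcription factors nor hormones nor junction proteins, and they are 10 of the 22609 genes in the deposited count table. All 10 passed the filter on low counts, as did 14788 genes in all.

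The table holds gene counts from whole testes of mice on postnatal day 3, on a dominant C57BL/6J background. The 2 mutant libraries are labelled as carrying a dominant-negative TR_alpha_1 receptor, a form of thyroid hormone receptor alpha 1 that blocks the normal one. The 2 wild-type libraries are labelled as carrying the wild-type TR_alpha_1 receptor. The animals came from AmhCre mice, in which the Amh promoter drives Cre recombinase in Sertoli cells, bred with TRαAMI heterozygotes. Whether wild-type animals carried AmhCre or TRαAMI alone, and whether each library is a separate animal, the labels do not say, so p-values measure only how far these libraries spread. The stated aim was to examine thyroid hormone target genes in testes whose receptor was disrupted in Sertoli cells alone. Paired values below are those of replicate 1 and then replicate 2. In whole testis, fewer Sertoli cells and less RNA per Sertoli cell cannot be told apart.

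Thyroid hormone acts on immature Sertoli cells: it slows their division and promotes their maturation, and without hormone the receptor represses its targets. Clu, Shbg and Ptgds are known from rodent Sertoli cells as secreted proteins that bind lipids, sex steroids and small hydrophobic molecules. Cst9, Mro, Tesc and Ptgds are known for male-biased expression in the mouse gonad soon after sex determination.

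Gene counts per library ranged from 10230512 to 15636832, and levels below are counts-per-million (CPM) values with library sizes adjusted by the trimmed mean of M values (TMM). Changes are those called by edgeR's quasi-likelihood test at an adjusted p below 0.05. Thra, the gene of the engineered receptor, was at 237 and 194 CPM in the mutant pair and at 398 and 257 CPM in the wild-type pair; counts per gene cannot tell the mutant from the normal transcript. The mutant libraries held skeletal muscle transcripts: Acta1, the skeletal actin gene, was at 875 and 222 CPM in the mutant pair and at 0.601 and 0.686 CPM in the wild-type pair. Muscle markers (9 of 10 higher) summed to 2640 and 690 CPM in the mutant and to 19.2 and 17.9 CPM in the wild-type libraries. Adipocyte markers (5 of 7 tested lower) summed to 45.6 and 48.2 CPM in the mutant and to 96.3 and 100.4 CPM in the wild-type libraries. Of macrophage markers 3 of 12 rose, and of mesothelium and duct markers 5 of 9. Of 8 Leydig, 8 peritubular myoid and 8 endothelial markers edgeR and limma voom called none, while 1, 3 and 1 had an unadjusted p below 0.05 and DESeq2 called 1, 0 and 1. Their sums ranged from 1251 to 1498, from 1923 to 2235 and from 321 to 384 CPM over the 4 libraries.

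Of the 10 genes, 3 fell in mutant testes (Aard, Etd and Shbg), 1 rose (Ptgds) and 6 were not called by edgeR's quasi-likelihood test at an adjusted p below 0.05. Aard fell 2.02-fold, Etd 1.92-fold and Shbg 1.57-fold, and Ptgds rose 1.69-fold (n = 2 each). Over all tested genes the same test called 5.67%, with 2.52% lower and 3.15% higher in mutant testes. The 10 genes had a median log2 fold change (mutant minus wild type) of -0.29, against -0.01 over all tested genes. A negative value was found in 8 of the 10 genes and in 7515 of the 14788 tested genes. The mutant and wild-type libraries did not overlap in 8 of the 10 genes, as they did not in 57.3% of all tested genes. All genes called split into 466 higher and 373 lower, 55.5% of calls being higher. Scaled to the summed counts of other Sertoli markers the split was 783 and 199, or 79.7% higher, and the median of all genes moved up by 0.105 on the log2 scale. The 10 genes still gave 1 higher and 3 lower call under that scaling. Without mutant replicate 1, which held the most muscle RNA, the log2 fold changes were -0.91 (Aard), -0.97 (Etd), -0.50 (Shbg) and 0.83 (Ptgds). Mutant replicate 2 still held muscle markers at 690 CPM, against 19.2 and 17.9 CPM in the wild-type libraries. Leaving out mutant replicate 1 therefore does not separate muscle RNA from genotype. The Acta1 level, far higher in both mutant than in both wild-type libraries, nearly repeats genotype when used as a covariate. That fit, which leaves 1 residual degree of freedom, therefore cannot separate muscle RNA from genotype. In it 0 of the 10 were called: Shbg changed sign (0.78), while Aard (-0.18), Etd (-1.30) and Ptgds kept theirs.

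Promoter windows of 7 of the 10 genes were taken from RefSeq's promoter table (build GRCm38.p6), and none was used for Aard, Clu and Mro. The 250 bases before the start site are shown for the 3 called genes among the 7. Of these, Shbg and Etd were lower and Ptgds higher in mutant testes. Capitals mark ACAAAG, a letter string of the Sox type, on either strand.
Shbg (chr11:69617906-69618155, minus strand): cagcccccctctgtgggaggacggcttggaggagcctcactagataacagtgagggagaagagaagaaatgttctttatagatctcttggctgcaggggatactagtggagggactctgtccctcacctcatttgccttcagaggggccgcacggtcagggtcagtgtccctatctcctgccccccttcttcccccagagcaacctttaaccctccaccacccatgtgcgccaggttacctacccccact
Etd (chrX:53434668-53434917, plus strand): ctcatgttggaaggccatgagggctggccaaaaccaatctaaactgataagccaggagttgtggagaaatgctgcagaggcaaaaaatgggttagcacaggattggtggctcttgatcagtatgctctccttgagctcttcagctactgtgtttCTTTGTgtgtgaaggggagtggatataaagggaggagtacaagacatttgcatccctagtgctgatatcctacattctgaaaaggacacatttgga
Ptgds (chr2:25469750-25469999, minus strand): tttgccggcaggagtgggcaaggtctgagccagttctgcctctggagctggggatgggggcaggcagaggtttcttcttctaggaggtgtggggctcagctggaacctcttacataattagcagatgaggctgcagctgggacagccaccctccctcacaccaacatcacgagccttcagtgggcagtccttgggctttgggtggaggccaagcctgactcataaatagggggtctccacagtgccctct

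The search covered both strands of the windows in the table, from 250 bases before to 50 bases after the start site. AGGTCA, the half-site letters of nuclear receptors, was in none of the 7 windows, and so neither was AAGGTCA, which contains it, nor the paired form, which is AGGTCA, 4 bases of any kind and AGGTCA again. These strings occur in 16.3%, 4.72% and 0.0152% of the 32851 promoter windows in the table. ACAAAG, in 18.7% of windows, lay in those of Etd, Cst9 and Ptgds, in Ptgds beyond the bases shown, starting 24 bases after the start site. ACAATG, in 12.6% of windows, lay in that of Ctsl.

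To compare genes, CPM was divided by exon length in kilobases. On that scale Ctsl had rank 13 of 14458 genes with a length, Aard rank 19, Clu rank 37 and Cst9 rank 38. Tesc, Etd, Mro, Ptgds and Shbg had ranks of 644, 717, 741, 1126 and 1798. Erbb4 had rank 14077, so the label of an abundant product does not describe it in these libraries. In mutant testes the order was Ctsl (1056 ± 10.4 CPM per kilobase), Aard (518 ± 53.5), Clu (459.5 ± 1.78) and Cst9 (453 ± 45.5; SD, n = 2), of which Cst9 overlapped Aard and Clu within 1 SD. In wild-type testes it was Ctsl (1135 ± 78.3), Aard (1045 ± 188), Cst9 (576 ± 145) and Clu (575 ± 31.4; SD, n = 2). There Ctsl and Aard overlapped within 1 SD, and so did Cst9 and Clu. In mutant testes Tesc (96.4 ± 13.8), Mro (76.4 ± 2.46), Ptgds (73.9 ± 5.33), Etd (58.5 ± 1.53), Shbg (32.2 ± 4.94) and Erbb4 (0.268 ± 0.0150) followed, and of these neighbours Mro and Ptgds overlapped within 1 SD. In wild-type testes Etd (112.5 ± 15.8), Mro (91.7 ± 11.1), Tesc (86.0 ± 26.4), Shbg (50.6 ± 0.147), Ptgds (43.8 ± 1.74) and Erbb4 (0.320 ± 0.0306) followed, Mro overlapping Etd and Tesc. Ptgds thus stood above Etd and Shbg in mutant testes and below both in wild-type testes.

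**Figure D1:**
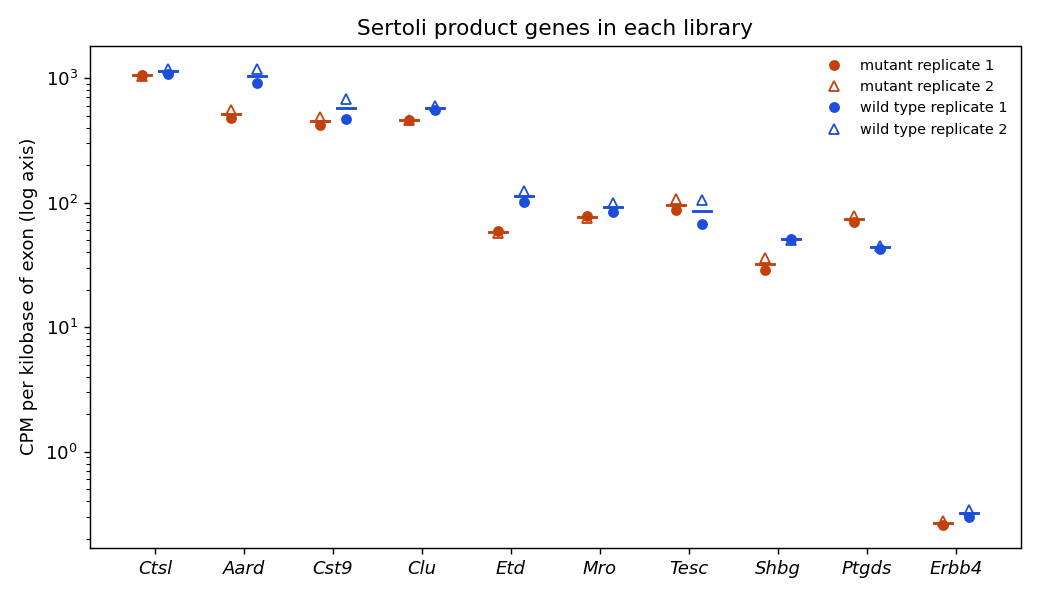
Level of each of the 10 genes in CPM per kilobase of exon (log axis), with a symbol for each library and a bar for the mean of each group, mutant left and wild type right. Ptgds is the gene in which both mutant libraries (70.1 and 77.6) lie above both wild-type libraries (42.5 and 45.0). In Aard, Etd, Shbg, Clu, Ctsl, Mro and Erbb4 both mutant libraries lie below both wild-type libraries.

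Among secreted proteins, clusterin (Clu, chromosome 14, 66587320 to 66600385, plus strand, mm9), an extracellular chaperone and a main secretory glycoprotein of Sertoli cells, was at 1576 and 1584 CPM in the mutant pair. It was at 1902 and 2055 CPM in the wild-type pair. Both mutant libraries lay below both wild-type libraries, by 1.25-fold (log2 fold change -0.32 ± 0.11 SE, 95% interval -0.58 to -0.07), which edgeR did not call (adjusted p = 0.115). DESeq2 called it at -0.32 (adjusted p = 0.00949) and limma voom did not (adjusted p = 0.0615).

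Shbg (chromosome 11, 69428306 to 69431407, minus strand, mm9) encodes the androgen-binding protein that rodent Sertoli cells release into the tubule. Its level was 43.2 and 53.8 CPM in the mutant pair and 76.4 and 76.1 CPM in the wild-type pair. The wild-type libraries were alike and both mutant libraries were lower, mutant replicate 1 the lower of them. Its log2 fold change was -0.65 ± 0.12 (edgeR, adjusted p = 0.0261). Leaving out wild-type replicate 1 (-0.65) or wild-type replicate 2 (-0.65) ended the call, with nearly the same fold change. Most calls over all genes were also lost in each of these fits, so the loss is not particular to Shbg.

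Cst9 (chromosome 2, 148660883 to 148664474, plus strand, mm9) encodes testatin, a secreted relative of the cystatin protease inhibitors. It was read at 289 and 333 CPM in the mutant pair and at 325 and 467 CPM in the wild-type pair. The groups overlapped, since wild-type replicate 1 lay below mutant replicate 2. The log2 fold change of -0.35 ± 0.16 (95% interval -0.71 to 0.02) was not called (edgeR, adjusted p = 0.219), and it was -0.07 when wild-type replicate 2 was left out and -0.59 without wild-type replicate 1.

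Ctsl (chromosome 13, 64464522 to 64471614, minus strand, mm9) encodes cathepsin L, a lysosomal cysteine protease whose proenzyme adult rat Sertoli cells secrete. It stood at 2099 and 2070 CPM in the mutant pair and 2132 and 2351 CPM in the wild-type pair. The gap between the groups was smaller than the gap between the wild-type libraries. The log2 fold change was -0.10 ± 0.12 with a 95% interval of -0.37 to 0.16 (edgeR, adjusted p = 0.616), and scaled to other Sertoli markers it was 0.0045.

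Ptgds (chromosome 2, 25322229 to 25325566, minus strand, mm9) encodes the lipocalin-type prostaglandin D synthase, a secreted enzyme that in the fetal mouse testis acts in a loop with Sox9. Its level was 116 and 128 CPM in the mutant pair and 70.1 and 74.2 CPM in the wild-type pair. Both mutant libraries were above both wild-type libraries and each pair was tight, with an SD of 7.22% of the mean in mutant and 3.98% in wild-type testes. This gave a log2 fold change of 0.76 ± 0.09 (95% interval 0.54 to 0.97; edgeR, adjusted p = 0.0089). Without wild-type replicate 1 it was 0.71 and not called, in a fit where most calls over all genes were lost. Macrophage markers summed to 441 and 615 CPM in the mutant pair and to 281 and 351 CPM in the wild-type pair. Mesothelium and duct markers summed to 472 and 638 CPM in the mutant and to 355 and 382 CPM in the wild-type libraries. The part of these cells in the Ptgds value was not tested.

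Among the other genes, Aard (chromosome 15, 51871653 to 51877267, plus strand, mm9) encodes a small alanine- and arginine-rich protein of little known function. It was read at 646 and 748 CPM in the mutant pair and 1227 and 1584 CPM in the wild-type pair. The highest mutant library lay well below the lowest wild-type library, although the wild-type libraries themselves differed. The log2 fold change was -1.01 ± 0.14 (95% interval -1.34 to -0.69; edgeR, adjusted p = 0.0119). It ranged from -1.19 to -0.82 with each library left out in turn and was called each time. Aard is the 1 gene of the 10 among the 42 genes of the table that were called in the full fit and in all 4 leave-one-out fits.

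Etd (chromosome X, 50788095 to 50796753, plus strand, mm9), named for its expression in the differentiating embryonic testis, was at 28.5 and 27.5 CPM in the mutant pair. In the wild-type pair it was at 48.4 and 59.1 CPM. The mutant libraries were alike and below both wild-type libraries, with a log2 fold change of -0.94 ± 0.13 (edgeR, adjusted p = 0.0115). The value was -0.80 without wild-type replicate 2, where the call was lost, as were most calls over all genes. Germ cell markers summed to 494 and 436 CPM in the mutant pair and to 1202 and 830 CPM in the wild-type pair, with 13 of 20 called lower. Their part in the Etd and Aard values was not tested.

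Mro (maestro, chromosome 18, 74019039 to 74040987, plus strand, mm9) is a male-biased gene of the early mouse gonad. It was read at 315 and 301 CPM in the mutant pair and at 338 and 401 CPM in the wild-type pair. The groups did not overlap, but the gap between the nearest libraries was smaller than that between the wild-type libraries, and the log2 fold change of -0.26 ± 0.10 was not called (edgeR, adjusted p = 0.156). It was -0.39 without wild-type replicate 1 and -0.14 with wild-type replicate 2 left out.

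Tesc (chromosome 5, 118477752 to 118511887, plus strand, mm9) encodes tescalcin, a calcium-binding protein that binds a sodium-proton exchanger. It stood at 138 and 169 CPM in the mutant pair and at 107 and 166 CPM in the wild-type pair. Replicate 2 was the higher library in both groups and the groups overlapped. Tesc had a log2 fold change of 0.17 ± 0.19 (95% interval -0.27 to 0.61) and was not called (edgeR, adjusted p = 0.615). It was -0.12 without wild-type replicate 1 and 0.52 when wild-type replicate 2 was left out.

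Erbb4 (chromosome 1, 68078760 to 69154633, minus strand, mm9), the receptor for neuregulins, was near the floor of the table, with 35 and 54 counts in the mutant pair and 49 and 43 counts in the wild-type pair. This is 3.18 and 3.45 CPM in the mutant and 3.68 and 4.22 CPM in the wild-type libraries. Both mutant libraries were below both wild-type libraries, but the difference was smaller than its SE. Its log2 fold change was -0.23 ± 0.28 (edgeR, adjusted p = 0.646), and the 95% interval of -0.87 to 0.41 includes the value of Shbg.

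**Figure D2:**
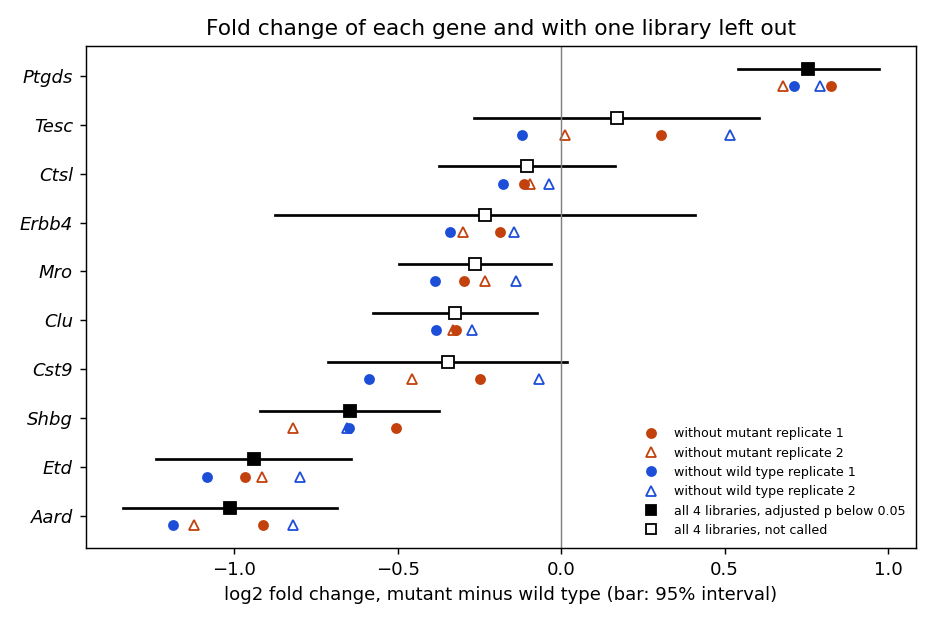
Log2 fold change (mutant minus wild type) of each gene from all 4 libraries, with its 95% interval, above the values with 1 library left out (coloured symbols). Filled squares mark an adjusted p below 0.05; Whichever library was left out, Ptgds lies right of 0 and the other genes left of it, except Tesc, which lies on both sides.

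The 10 genes together took 0.52% and 0.543% of all gene counts in the mutant pair and 0.627% and 0.722% in the wild-type pair. Ctsl, Clu and Aard made up 82.3% and 81.3% of this sum in the mutant and 84.5% and 82.8% in the wild-type libraries. Aard gave 12.3% and 13.8% of the sum in the mutant pair and 19.7% and 21.9% in the wild-type pair. Ptgds gave 2.20% and 2.36% in the mutant and 1.13% and 1.03% in the wild-type libraries. Ctsl gave 40.0% and 38.2% in the mutant and 34.2% and 32.5% in the wild-type libraries. Clu took between 28.4% and 30.5% of the sum in all 4 libraries, and its groups overlapped. With Ctsl left out of the sum, the mean Clu share was 4.42 points higher in mutant than in wild-type testes, against 0.157 points with it. Shares of a fixed sum are not independent, so a share can shift because another gene moved.

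**Figure D3:**
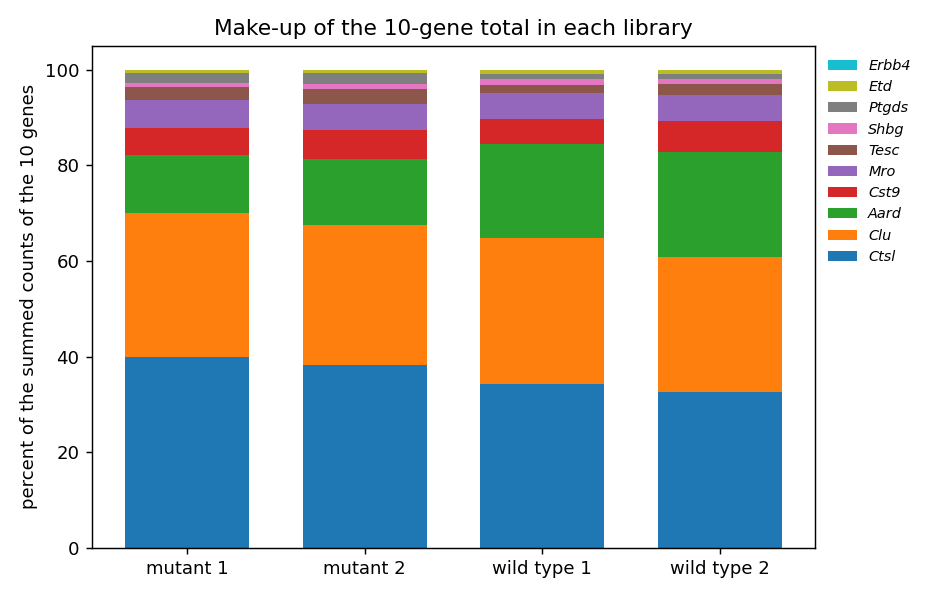
Percent of the summed counts of the 10 genes taken by each gene (stacked segments) in mutant and then wild-type libraries, in counts not corrected for length. The Aard segment is 12.3% and 13.8% in the mutant libraries, against 19.7% and 21.9% in the wild-type libraries.

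Ratios within a library do not depend on its scaling. Ptgds was called higher and Aard and Shbg lower, so the ratios of Ptgds to them restate those calls. The libraries held 0.179 and 0.171 Ptgds counts for each Aard count in the mutant pair and 0.0572 and 0.0468 in the wild-type pair. Ptgds counts were 2.67 and 2.38 times those of Shbg in the mutant libraries, and 0.918 and 0.976 times in the wild-type libraries. The ratio of Etd to Aard, both of which fell, was 0.0441 and 0.0367 in the mutant and 0.0395 and 0.0373 in the wild-type libraries, with overlap between the groups. Tesc to Aard was 0.213 and 0.226 in the mutant and 0.0873 and 0.105 in the wild-type libraries. Wild-type replicate 2 was above wild-type replicate 1 in 9 of the 10 genes, Shbg being the exception, while this held for 49.5% of all tested genes. Mutant replicate 2 was above mutant replicate 1 in 7 of the 10, and in 49.5% of all tested genes.

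Beside the 10 genes, 29 of 30 other Sertoli markers were tested, with a median log2 fold change of -0.02. Of the 29, 5 fell (Cldn11, Dmrt1, Gata1, Mmd2 and Gstm6) and 24 were not called, while 2.52% of all tested genes fell. An unadjusted p below 0.05 (edgeR) was found in 11 of the 29, and DESeq2 called 7 and limma voom 4. The 29 markers summed to 6242 and 6284 CPM in the mutant pair and to 6566 and 6934 CPM in the wild-type pair. Of 16 other secreted proteins listed for Sertoli cells, Timp2, an inhibitor of matrix metalloproteinases, rose and 15 were not called. The median of the 16 was 0.09, and 0.07 to 0.16 with 1 library left out. Which cells of the whole testis made these RNAs was not tested. Timp2 was at 419 and 380 CPM in the mutant and at 314 and 288 CPM in the wild-type libraries, a 1.33-fold difference (edgeR, adjusted p = 0.0441). This call ended without mutant replicate 1, and without either wild-type library, where most calls over all genes were lost. DESeq2 called 5 of the 16, Timp2, Trf, Tgfb2 and Fstl1 higher and Cst3 lower, and without mutant replicate 2 edgeR called Timp2, Igfbp3 and Tgfb2 higher and Cp lower.

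Of 9 other cystatin genes listed, 7 of them on chromosome 2 like testatin, 5 were tested. Of these 5, Cst12 was lower in mutant testes and 4 were not called (median -0.33). With 1 library left out and the filter applied anew, the median of the cystatins tested was 0.02 without mutant replicate 1, -0.39 without mutant replicate 2, -0.13 without wild-type replicate 1 and 0.04 when wild-type replicate 2 was left out, and with no filter it was 0.03. Cst12 (chromosome 2, 148615097 to 148619282, plus strand, mm9), a cystatin-related gene of the reproductive tract, stood at 236 and 268 CPM in the mutant pair and 341 and 393 CPM in the wild-type pair. Both mutant libraries were below both wild-type libraries, by 1.45-fold (log2 fold change -0.54 ± 0.10; edgeR, adjusted p = 0.0291). This call ended without mutant replicate 1, and without either wild-type library, where most calls over all genes were lost. Without mutant replicate 1, Cst6 and Cst13, which did not pass the filter on low counts with all 4 libraries, were called higher in the 1 mutant library left. Cystatin C (Cst3), an inhibitor of cathepsins chosen after its value was seen, was at 299 and 323 CPM in the mutant and at 375 and 408 CPM in the wild-type libraries and was not called by edgeR (adjusted p = 0.0673), while DESeq2 called it lower (adjusted p = 0.028). Of 12 cathepsin genes other than Ctsl, edgeR, DESeq2 and limma voom called none (median 0.02, and -0.05 to 0.06 with 1 library left out), and 1 had an unadjusted p below 0.05. That 1 was Ctsc, cathepsin C, with a log2 fold change of 0.53 ± 0.15 (edgeR, adjusted p = 0.075).

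Of 11 prostaglandin genes tested besides Ptgds, 3 rose and 8 were not called, and their median log2 fold change was 0.28, and 0.17 to 0.27 with 1 library left out. Pla2g4a, the cytosolic phospholipase that frees arachidonic acid, was at 83.5 and 84.4 CPM in the mutant pair and 53.9 and 61.2 CPM in the wild-type pair (1.46-fold; edgeR, adjusted p = 0.0247). The cyclooxygenase gene Ptgs1 was at 20.1 and 21.9 CPM in the mutant and at 13.4 and 9.90 CPM in the wild-type libraries (1.79-fold; edgeR, adjusted p = 0.0418). The inducible cyclooxygenase gene Ptgs2 had 36 and 43 counts in the mutant and 12 and 9 counts in the wild-type libraries (3.30-fold; edgeR, adjusted p = 0.0418). In Pla2g4a, Ptgs1 and Ptgs2, both mutant libraries were above both wild-type libraries. All 3 calls ended when either wild-type library was left out, as did most calls over all genes. That of Ptgs1 also ended without mutant replicate 2. Ptgs2 was not called by DESeq2 (adjusted p = 0.105) or limma voom (adjusted p = 0.058). With no filter on low counts Pla2g4a alone of the 3 was called, with Ptgs1 at an adjusted p of 0.0532 and Ptgs2 at 0.0678, and with the replicate number as a block Ptgs1 was not called (adjusted p = 0.0538). The receptors of prostaglandin D2, Ptgdr and Gpr44, did not pass the filter on low counts. Macrophages also express cyclooxygenases, and their marker sums, higher in both mutant libraries, stand beside Ptgds. Their part was not tested.

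Of 12 other ErbB receptor and ligand genes, Erbb2, a partner receptor of Erbb4 that shares 9 exon bases with 1810046J19Rik on the opposite strand, rose and 11 were not called (median 0.21, and 0.08 to 0.19 with 1 library left out). Erbb2 was at 201 and 177 CPM in the mutant pair and at 135 and 149 CPM in the wild-type pair (1.33-fold; edgeR, adjusted p = 0.0494). This call ended without mutant replicate 1, and without either wild-type library, where most calls over all genes were lost. Limma voom did not make the call (adjusted p = 0.0592). The call held in 7 of 16 other settings, and it was also absent with the legacy quasi-likelihood fit (adjusted p = 0.0505), with library size alone (0.0502), with no filter (0.0721) and with the replicate number as a block (0.0665). Of 6 genes for lipoprotein-family receptors and Apoe, listed as partners of clusterin or related cargo, edgeR, DESeq2 and limma voom called none, and 1 had an unadjusted p below 0.05. That 1 was the receptor gene Vldlr, at 0.48 ± 0.12 (edgeR, adjusted p = 0.0604). The median of the 6 was 0.04, but 0.24 without wild-type replicate 1 and -0.14 when wild-type replicate 2 was left out. Among 6 relatives of tescalcin, calcineurin subunits and exchangers, Cib1, a calcium- and integrin-binding protein, fell and 5 were not called (median 0.13, and 0.04 to 0.15 with 1 library left out). Cib1 was at 32.1 and 35.6 CPM in the mutant and at 58.6 and 57.1 CPM in the wild-type libraries (1.70-fold, edgeR, adjusted p = 0.0119). This call ended when either wild-type library was left out, as did most calls over all genes.

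**Figure D4:**
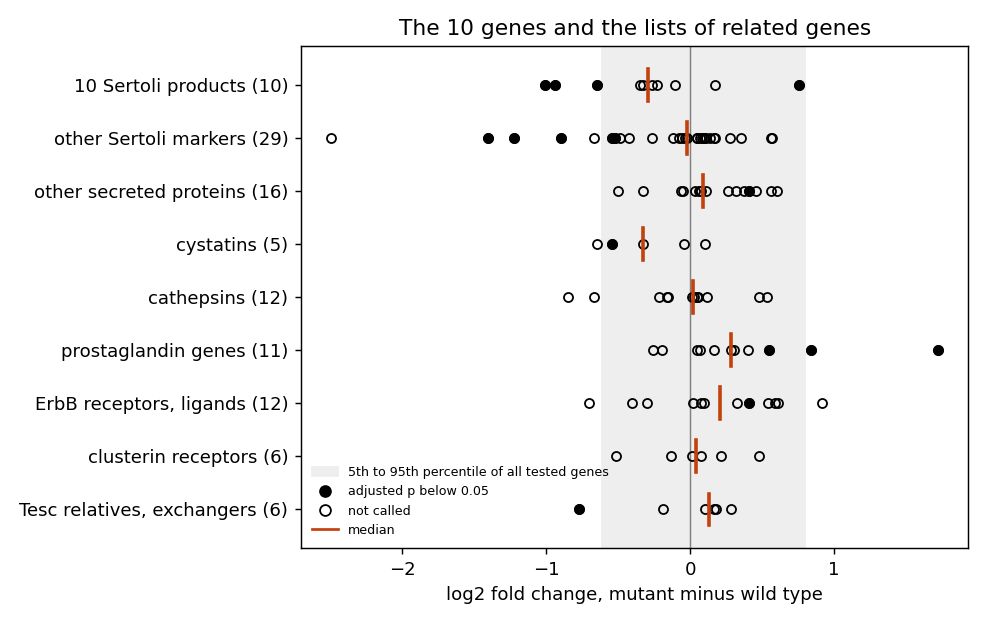
Log2 fold change (mutant minus wild type) of the 10 genes and of the tested genes of each related list, with the number tested in brackets; filled circles have an adjusted p below 0.05 and the bar is the median. The 10 genes have a median of -0.29 and the 11 prostaglandin genes one of 0.28, and the grey band spans the 5th to 95th percentile of all tested genes (-0.61 to 0.80).

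The genes most like each called gene were sought among 11326 genes by the distance between log2 CPM values centred over the 4 libraries, a description of 4 points. Aard was nearest to Gm11744 (distance 0.139) and to Gca, which encodes grancalcin (0.165). Etd was nearest to the tetraspanin gene Tspan17 (0.0796) and again to Gca (0.084). Gca stood at 30.3 and 31.5 CPM in the mutant pair and at 53.2 and 63.6 CPM in the wild-type pair. Shbg was nearest to the Polycomb gene Cbx7 (0.0464) and the chaperonin gene Hspe1 (0.0641), and Ptgds to the envoplakin gene Evpl (0.044) and the receptor gene Eda2r (0.0899).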

How the data were processed

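Polyadenylated RNA of whole testes was sequenced as single-end reads of 100 bases, per the labels' protocols. The build mm9 and the tools TopHat 1.4.0, CASAVA 1.8.1, DESeq2 and HTSeq are listed, without their roles, per the submitters' processing notes. Counting mode and strandedness were not stated there. The authors deposited 1 table of raw gene counts. The deposited values were handled as estimated counts, since percentage lines end the columns, but the authors made them by counting reads per gene, per the file headers and category lines, and rounding changed none. Read categories below the genes (13.8% to 17.3% of counted reads in no gene, 0.602% to 0.726% ambiguous) were left out.

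Counts were tested with edgeR 4.0.16 (R 4.3.3), quasi-likelihood F test with the legacy and robust options off, TMM normalisation, genotype alone, and a filter with minimum count 10 and minimum total 15. P-values were two-sided and adjusted over all tested genes by the Benjamini-Hochberg method. SE was computed as the absolute log2 fold change over the root of the F statistic. Errors after ± are SE for log2 fold changes and SD for levels. The alternatives were DESeq2 1.42.0, limma voom (3.58.1), other fits, scalings, filters and covariates, and each library left out. Log2 CPM used a prior count of 2.

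Positions and exon lengths are those of GENCODE M1 on NCBIM37 (mm9). No exon of the 10 genes overlaps another gene there, and no run of 100 bases of their coding transcripts occurs in another gene's. The 10 genes and all lists were chosen with earlier results of these data known. Named besides the 10 are Thra, Acta1, up to 3 called genes per related list (or the 1 with the smallest p), and the 2 nearest genes to each called gene (mean log2 CPM of at least 3). Marker lists covered other Sertoli, germ, Leydig, peritubular myoid, macrophage, endothelial, skeletal muscle, adipocyte, and mesothelium and duct cells. The Sertoli markers that fell, the prostaglandin D2 receptors, and genes called only by DESeq2 or with a library left out are named outside this rule, after their values were seen. With a library left out, the lone library of its group was assumed to vary like the other group.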

Additional observations from a re-analysis of the deposited data

How the results depend on the processing

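Of 160 values of the 10 genes under 16 other settings, 147 kept their sign and their side of the threshold, 7 kept their sign but lost a call, 1 gained one (Clu with DESeq2) and 5 changed sign, of which Shbg with the Acta1 covariate also lost its call. With each library left out in turn, 0 to 1 of the 10 genes were called higher and 1 to 3 lower, and over all genes 34 to 818 higher and 40 to 477 lower, the fewest without a wild-type library. Limma voom called 309 genes higher. Without a filter 282 were higher and 218 lower, and scaled to other Sertoli markers 783 and 199, with Ctsl at 0.0045. Acta1 as a covariate nearly repeats genotype and leaves 1 residual degree of freedom, so that fit cannot separate muscle RNA from genotype. There 0 of the 10 genes were called higher and 0 lower, and 59 and 55 genes in all. The log2 fold changes there were 0.40 for Cst9, 0.78 for Shbg, 0.21 for Erbb4, 0.21 for Cst12, -0.47 for Erbb2 and -0.18 for Timp2. Tesc was at -0.12 without wild-type replicate 1, but 0.52 with the other wild-type library left out. The cause of these moves was not tested. With the replicate number as a block, 1 of the 10 genes was higher and 3 lower (512 and 341 genes in all), and Ptgs1 (adjusted p = 0.0538) and Erbb2 (adjusted p = 0.0665) were not called. The numbers share no stated origin, and deviations of same-numbered libraries correlated at -0.0314 over genes. With Ctsl left out of the sum of the 10 genes, the Aard share differed by -9.77 in place of -7.75 percentage points and the Clu share by 4.42 in place of 0.157. With 2 libraries a group, and 35 to 54 counts for Erbb4, changes below the intervals given could not be seen.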
